A study of Mus musculus with 12 samples.

Results

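The interferon-inducible p200 genes of the mouse were followed in the injured brain through 9 members, namely Ifi203, Ifi204, Ifi205, Ifi206, Ifi207, Ifi209, Ifi211, Ifi213 and Mndal. They were found by matching their symbols to the Ensembl identifiers of the deposited tables, and all 9 were present among the 35697 genes of the sham and TBI table and among the 55637 identifiers of the zileuton table. They are 9 of the 14 p200 genes annotated in the mouse. The other 5 are Aim2, Ifi202b, Ifi208, Ifi214 and the pseudogene Ifi203-ps.

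RNA was sequenced from the pericontusional brain of 12 adult male wild-type C57BL/6J mice in 4 groups of 3, and no group carried a transgene or a deletion. In the 2018 batch, sham mice had the surgery without the impact and TBI mice had a controlled cortical impact, a piston-driven injury of the exposed cortex, with tissue taken at 7 days. In the 2022 batch, all 6 mice were injured, and 3 of them received zileuton, an inhibitor of 5-lipoxygenase, by intraperitoneal injection at 10 mg per kg body weight each day. The other 3 are called injured controls here. The library names place every 2022 mouse at 7 days, whereas the source labels of the zileuton mice read 7, 8 and 9 days. The columns of the 2022 table could be matched to a group but not to single labelled mice, so its mice are called by their column numbers 2, 3 and 6.

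The p200 proteins form a family that usually pairs a pyrin domain, which binds other pyrin proteins, with a HIN domain, which binds DNA. Interferons induce many of these genes through promoter elements bound by STAT and IRF factors, and macrophages and microglia are among the cells that express them. Several members act as sensors of DNA or as regulators of transcription and cell growth. Aim2, the best known relative, assembles an inflammasome when it meets double-stranded DNA in the cytosol.

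The members lie side by side on chromosome 1. In the GENCODE annotation of GRCm38 they spanned chr1:173468485-174031810, a stretch of 563 kb, in the order Ifi206, Ifi213, Ifi209, Ifi207, Ifi204, Mndal, Ifi211, Ifi203 and Ifi205. Ifi209 lay on the plus strand and the other 8 on the minus strand. Exons of Mndal overlapped exons of Ifi203 on the same strand, and Ifi211 lay inside the span of Mndal, so the counts of these genes carry that uncertainty. The submitters' processing notes name GRCm39, so these positions describe the gene order and were not used to make any value.

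Promoter sequence is shown because the family is known for its induction by interferon, and the interferon-stimulated response element is a promoter element through which type I interferon acts. RefSeq promoter windows of GRCm38.p6, from 250 bases before to 50 bases after the start site, were given for 8 of the 9 members and 4 of the other 5 genes, and Ifi204 and Ifi203-ps had none in the table used. The core of the element was searched on both strands as GAAA, any 2 bases, and GAAA again. The stretches below run 5′ to 3′ on the strand of each gene, with the 10 matching bases in capitals.
Ifi206, chr1:173491334-173491373, minus strand: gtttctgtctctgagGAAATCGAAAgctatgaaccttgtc
Ifi213, chr1:173599321-173599360, minus strand: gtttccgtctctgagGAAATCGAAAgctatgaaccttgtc
Ifi207, chr1:173741826-173741865, minus strand: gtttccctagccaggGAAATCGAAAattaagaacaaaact
Mndal, chr1:173880199-173880238, minus strand: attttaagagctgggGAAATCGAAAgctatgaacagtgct
Ifi203, chr1:173942503-173942542, minus strand: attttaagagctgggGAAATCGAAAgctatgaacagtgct
Ifi211, chr1:173913059-173913098, minus strand: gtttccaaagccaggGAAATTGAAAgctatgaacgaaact
Ifi205, chr1:174031865-174031904, minus strand: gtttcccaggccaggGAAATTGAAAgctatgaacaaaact

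The core was found in 7 of the 8 members with a window, against 3.99% of the 27025 genes with a window. The first base of the printed match lay between 134 and 35 bases before the start site, at -134 in Ifi205 and -35 in Ifi203. Mndal and Ifi205 each held a further match on the opposite strand, at -54 and 23. That of Mndal lay in another window of the gene and was measured from a different start site. Ifi203 also had another window, which held no core. Of the other p200 genes, Ifi214 and Ifi208 held the core and Aim2 and Ifi202b did not.

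Most members shared more than the core. The form with TC as the 2 free bases, searched after the matches had been seen, was present in 5 members and in both Ifi208 and Ifi214, and in 16 of the 27025 genes in all (0.0592%). In the 90 bases around the match, Mndal and Ifi203 were identical at all 90, Ifi206 and Ifi213 at 88, Ifi211 and Ifi205 at 81 and Ifi207 and Ifi205 at 78. The members thus fell into groups of near copies, and between groups the identity was lower, at 54.4% for Ifi206 with Mndal, 52.2% for Mndal with Ifi211 and 38.9% for Ifi206 with Ifi207. Members of 1 group are not independent instances of the motif. The STAT core TTCNNNGAA was in none of the 8 member windows and in 9.55% of all genes.

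Ifi209 was the member without the core. Its closest stretch to the form with TC differed at 1 base, written G1T with positions counted from the first base of the motif, and is shown for comparison with its neighbours.
Ifi209, chr1:173630765-173630804, plus strand: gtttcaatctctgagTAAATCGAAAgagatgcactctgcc
Ifi214, chr1:173536012-173536051, minus strand: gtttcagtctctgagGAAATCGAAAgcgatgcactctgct
Ifi208, chr1:173673592-173673631, plus strand: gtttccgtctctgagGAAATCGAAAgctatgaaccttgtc
A letter match describes the window and does not show that a factor binds there.

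**Figure D1:**
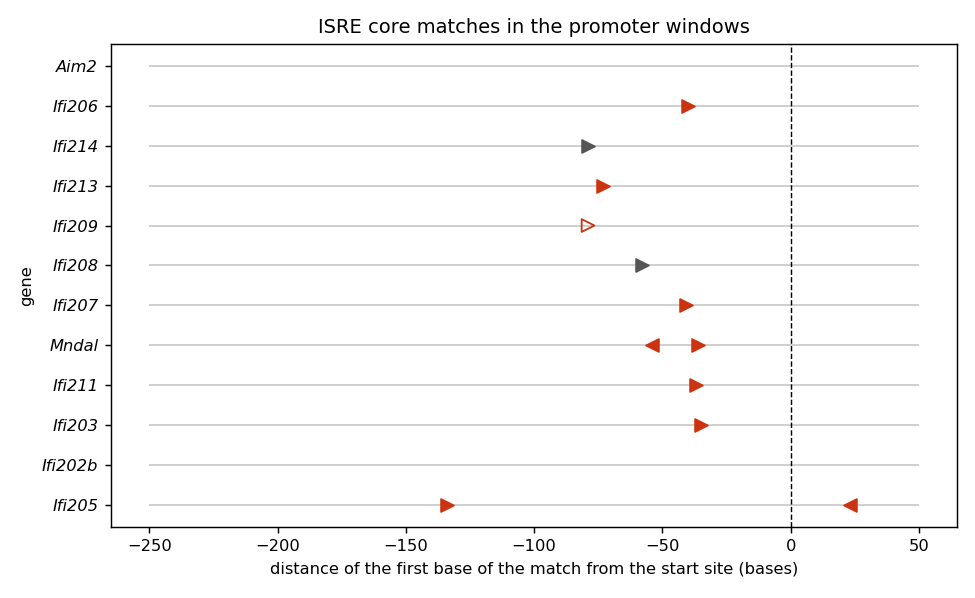
Each line is the promoter window of a p200 gene, drawn as distance from the start site in bases. Windows of the same gene with different start sites share a line. Filled arrows mark a match to the core on the gene's strand (right) or the opposite strand (left), red for members and grey for others. The open arrow of Ifi209 marks its closest stretch, 1 base away. The matches lie between -134 and 23.

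The first comparison asked how injury changed gene expression at 7 days. In all 9 members each injured mouse lay above all 3 sham mice. Among the 7 members with more than 1 count over the sham mice, the fitted fold change ran from 4.61 in Mndal to 90.8 in Ifi204, while the fits of Ifi205 and Ifi206 rested on 1 and 0 sham counts and were higher. The members were chosen by their raised counts in this same comparison, so these values are a description without a test. Over all 19536 genes tested, 28.0% were called by edgeR's quasi-likelihood test at an adjusted p under 0.05, 16.8% were called higher, and in 24.6% the TBI mice all lay above the sham mice. A log2 fold change above 5, the size shown by 7 of the 9 fitted members, was reached by 0.568% of the genes.

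Ifi204 encodes p204, a nuclear and cytosolic protein that has been studied as a DNA sensor and as a partner of the retinoblastoma protein. It counted 9, 14 and 6 in the sham mice and 582, 850 and 1224 in the TBI mice. As counts per 1000000 (CPM), the means were 0.21 ± 0.0886 and 19.2 ± 8.44 (SD, n = 3 each). The fit gave 90.8-fold, or 6.50 on the log2 scale (SE 0.43). No sham value came near the lowest injured mouse.

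Ifi207, another pyrin and HIN protein of the nucleus, counted 8, 16 and 5 in sham and 489, 639 and 709 in TBI mice. Its level was 0.21 ± 0.123 CPM in sham and 13.2 ± 3.26 CPM after injury (log2 fold change 5.96, SE 0.367). The 3 injured mice lay closer together here than for Ifi204.

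Ifi209 counted 4, 5 and 7 in sham and 256, 358 and 507 in TBI mice, or 0.115 ± 0.0298 against 8.11 ± 3.35 CPM (log2 fold change 6.10, SE 0.414). Its fold change lay within the range of the other members. A link between promoter letters and fold change was not tested. Ifi211 counted 3, 6 and 10 in sham and 211, 267 and 386 in TBI mice (log2 fold change 5.49, SE 0.442). Ifi213 counted 4, 2 and 4 in sham and 95, 176 and 209 in TBI mice (log2 fold change 5.53, SE 0.491). Sham counts of 10 or fewer carry much counting error, so the folds of these 3 genes are known less well than the injured levels.

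Ifi205 and Ifi206 were all but undetected without injury. Ifi205, whose product p205 has been linked to inflammasome gene control in macrophages, counted 1, 0 and 0 in sham and 19, 39 and 78 in TBI mice. The ratio of the summed counts per depth was 134, with an exact 95% counting interval from 23.6 to 5330. Ifi206 counted 0 in all 3 sham mice and 62, 154 and 164 in the TBI mice. With 3 counts taken as the limit in each sham library, it was at least 42.3-fold higher.

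Mndal and Ifi203 stood at the low end of the fold changes. Mndal, a relative of the human myeloid cell nuclear differentiation antigen that has been linked to growth arrest, counted 46, 49 and 32 in sham and 197, 167 and 228 in TBI mice (log2 fold change 2.21, SE 0.275). Ifi203 counted 47, 40 and 54 in sham and 190, 253 and 251 in TBI mice (log2 fold change 2.29, SE 0.241, 4.87-fold). Both were above their sham values in every injured mouse. These are the genes whose 90 promoter bases were identical, and also those whose exons overlap. The part of either in their fold changes was not tested.

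**Figure D2:**
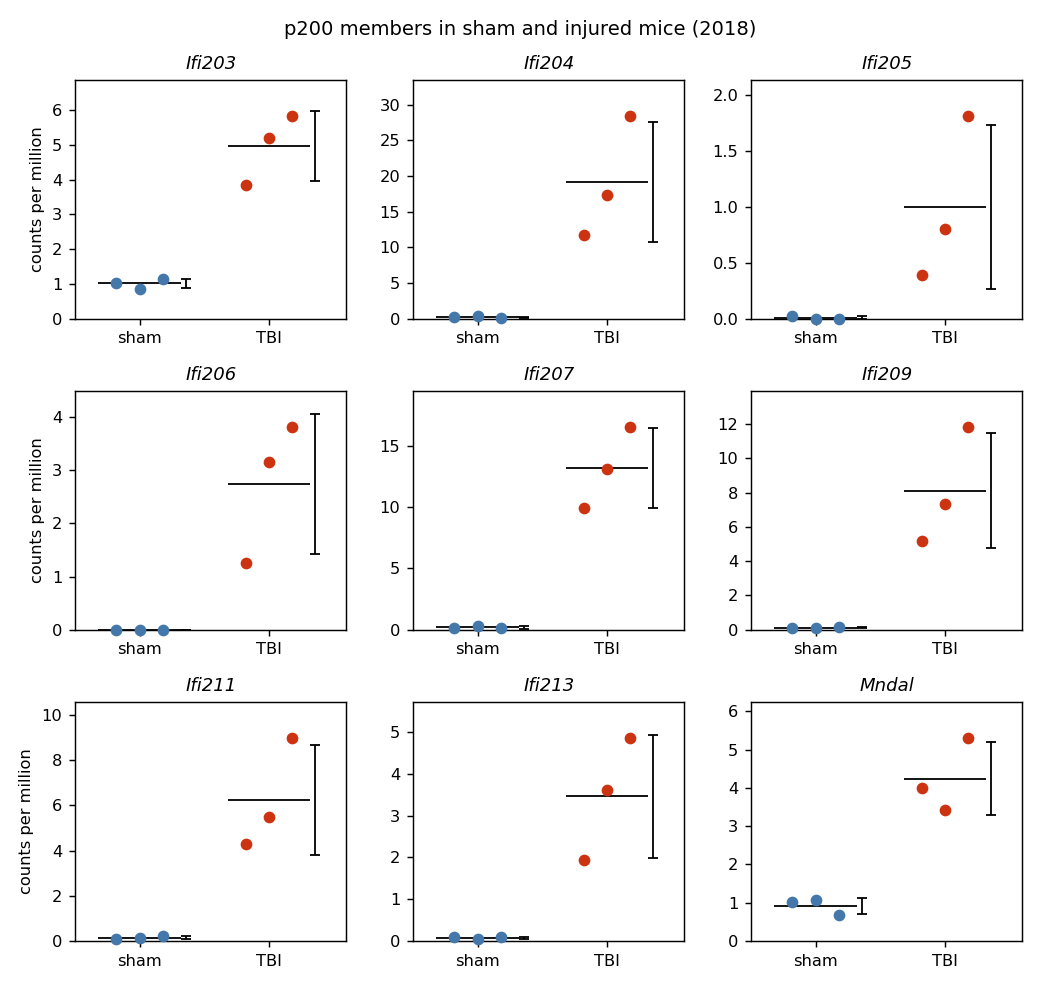
Counts per 1000000 (CPM) of the 9 members in the 3 sham (blue) and 3 TBI (red) mice of 2018, 1 panel per gene, each with its own axis from 0. Points are mice, the line is the mean and the bar beside it the SD. Every injured mouse lies above every sham mouse in all 9 panels, and sham levels are visible in Ifi203 and Mndal, at about 1 CPM.

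The members also differed in where they started. On the deposited FPKM, which divide by the gene length used, Mndal was the highest member in sham tissue (0.251 ± 0.0576) and Ifi203 the next (0.149 ± 0.0202), and their sham values did not overlap each other. Ifi211 (0.0747 ± 0.04), Ifi207 (0.0601 ± 0.0356) and Ifi204 (0.0578 ± 0.0245) followed with overlapping values. Ifi206 was listed at 0. The order depends on those lengths, which the counts and FPKM put at 6706 bases for Ifi203 and 3591 for Mndal. On CPM, without a length, Ifi203 stood at 1.01 ± 0.138 and Mndal at 0.918 ± 0.213 in sham mice.

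After injury the order was another one. Ifi204 led with 5.48 ± 2.35 FPKM, then Ifi207 with 3.91 ± 0.947, Ifi211 with 3.55 ± 1.34 and Ifi209 with 2.32 ± 0.935. Mndal followed at 1.20 ± 0.252, Ifi206 at 0.914 ± 0.44, Ifi203 at 0.753 ± 0.152, Ifi213 at 0.515 ± 0.215 and Ifi205 at 0.242 ± 0.175. Neighbours in this order overlapped, with Ifi209 and Mndal touching at 1.48, so a difference between neighbours is within the spread of the mice.

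Injured mouse 3 had the highest CPM of all 9 members and injured mouse 1 the lowest of 8. Summed over the members, the TBI mice reached 42.7, 59.6 and 87.2 CPM, and the sham mice 2.71, 2.85 and 2.48 CPM. The summed monocyte and macrophage markers were also highest in injured mouse 3, at 937, 780 and 1540 CPM in TBI mice 1 to 3, against 90.8 to 97.8 in sham mice. All 12 of these markers were tested and 11 were called higher, with a median log2 fold change of 3.54. The 10 microglial markers were all called higher, their sum reaching 755 to 1100 CPM against 257 to 301, and 5 of the 6 neutrophil markers tested were called higher, at 16.6 to 64 against 0.908 to 1.62 CPM. More cells of these types and more RNA per cell cannot be told apart in such tissue, and the part of either in the p200 values was not tested.

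The other p200 genes differed in size of change. Aim2 counted 107, 82 and 112 in sham and 247, 374 and 290 in TBI mice (log2 fold change 1.58, SE 0.223), and was the highest p200 gene per length in sham tissue at 0.608 ± 0.0948 FPKM. Ifi208 counted 4, 0 and 1 in sham and 32, 44 and 29 in TBI mice (log2 fold change 4.26, SE 0.724). Ifi203-ps moved least, with 14, 12 and 14 counts in sham and 21, 22 and 23 in TBI mice (log2 fold change 0.70, SE 0.388). Ifi214 counted 0 in all sham mice and 3, 6 and 7 in TBI mice and was not tested. Ifi202b, which is known to be low in C57BL/6 mice, counted 0 throughout.

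The order of the members along the chromosome did not sort them by fold change. Ifi211, with a log2 fold change of 5.49, lay between Mndal at 2.21 and Ifi203 at 2.29. Outside the family, 29 of the genes within 1000 kb were listed in the 2018 table and 13 were tested. Of these, Slamf8 (log2 fold change 3.94, SE 0.52, adjusted p = 0.000748), Slamf9 (3.33, SE 0.515, adjusted p = 0.00178) and Tagln2 (1.79, SE 0.139, adjusted p = 4.22e-05) rose by edgeR's test. Slamf8 and Slamf9 encode surface receptors of myeloid and other immune cells. Cadm3, a neuronal adhesion gene, fell by 0.42 on the log2 scale (SE 0.0717, adjusted p = 0.00291 by edgeR), and the other 9 did not pass. The span of Cadm3 overlaps that of Aim2 on the opposite strand, without overlap of exons. Thus 3 of the 13 neighbours were called higher and 1 lower. Over all genes tested, 16.8% were called higher and 28.0% in either direction.

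**Figure D3:**
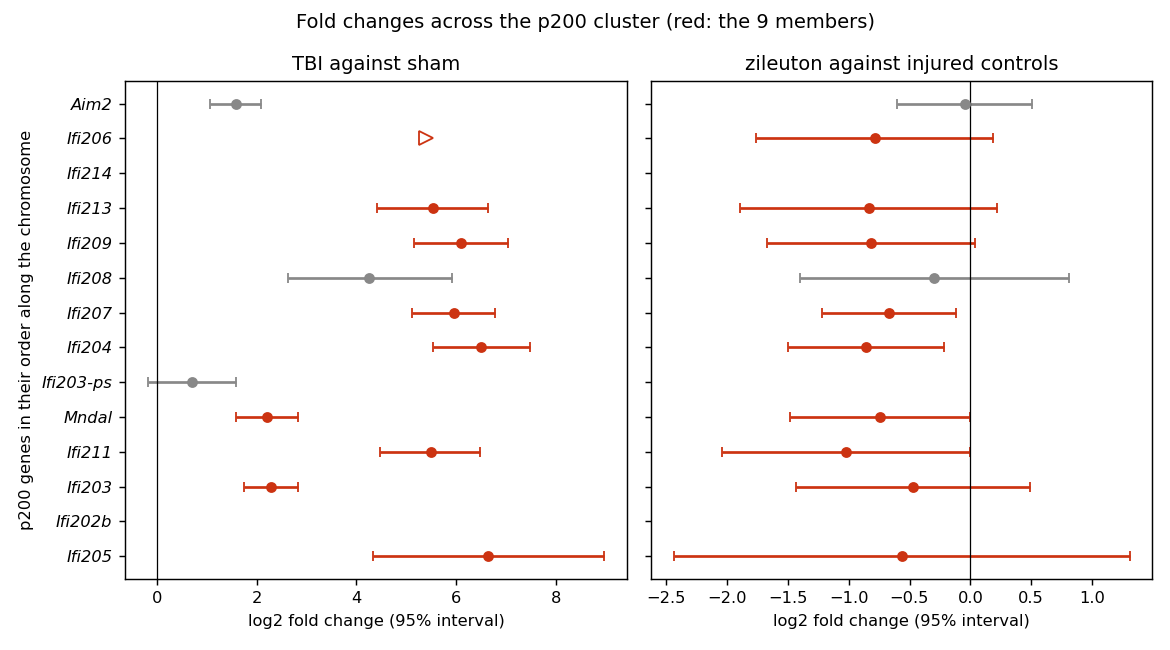
Log2 fold change of the p200 genes in their order along chromosome 1, for TBI against sham (left) and zileuton against injured controls (right), with 95% intervals from edgeR; members are red and other p200 genes grey, and untested genes are left empty. The open triangle of Ifi206 is its lower bound at 3 counts a library, 5.40. On the left Mndal and Ifi203 lie near 2 among members near 6, and on the right all 9 members lie below 0 with intervals that mostly reach it.

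Genes upstream and downstream of the family were followed through lists chosen for their function. Of the 27 interferon ligands and receptors of the list, 11 were listed in the 2018 table and 6 passed the filter on low counts. The receptor chains Ifngr1 (log2 fold change 1.50, SE 0.12, adjusted p = 4.75e-05), Ifnar2 (1.06, SE 0.105, adjusted p = 0.000149) and Il10rb (1.61, SE 0.139, adjusted p = 7.08e-05) rose, and none fell. Ifng, which encodes interferon gamma, and Ifne counted 0 in every 2018 mouse, so their transcripts were not detectable at this depth.

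Of the 18 genes of interferon receptor signalling, 12 rose and none fell, with a median log2 fold change of 1.12. Irf8, a myeloid transcription factor, went from 5.23 ± 0.308 to 42.1 ± 6.74 CPM (log2 fold change 3.01, SE 0.136, adjusted p = 5.39e-06 by edgeR). Stat2 (0.81, SE 0.119) and Stat3 (1.00, SE 0.101) rose less, and the kinase genes Jak1 (-0.05, SE 0.0851) and Jak2 (0.04, SE 0.098) did not pass.

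Of 20 tested genes of cytosolic DNA sensing, 11 rose and 1 fell. Irf7, the interferon regulatory factor that amplifies type I interferon, went from 0.966 ± 0.0355 to 43.2 ± 17.8 CPM (log2 fold change 5.48, SE 0.346, adjusted p = 1.75e-05 by edgeR), a fold change within the range of the members. Samhd1, a dNTP hydrolase (1.21, SE 0.129), and Irf3, the factor that STING activates through TBK1 (0.57, SE 0.0888), rose less. Tbk1, the kinase gene itself, fell by 0.31 on the log2 scale (SE 0.0729, adjusted p = 0.0135).

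In the AIM2 inflammasome and pyroptosis list, 11 of 13 genes rose and none fell. Pycard, which encodes the adaptor ASC, went from 2.28 ± 0.377 to 10.5 ± 1.87 CPM (log2 fold change 2.20, SE 0.2, adjusted p = 9.35e-05 by edgeR). Ninj1, which ruptures the membrane of dying cells (1.34, SE 0.121), Il1r1, the interleukin-1 receptor (1.69, SE 0.229), and Il18bp, the inhibitor of interleukin-18 (1.39, SE 0.248), also rose.

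Among 11 genes whose products are known to bind p200 proteins, 6 rose and 1 fell, with a median log2 fold change of 0.30. Id3, an inhibitor of DNA binding, rose most of those named here (1.48, SE 0.0957, adjusted p = 1.78e-05 by edgeR), and Npm1 (0.30, SE 0.0877), Rb1 (0.47, SE 0.0816) and Trp53 (0.42, SE 0.0948) rose less. The fall was in E2f1 (-0.65, SE 0.112, adjusted p = 0.00301), which was named after its value was seen. The median over all genes tested was 0.02.

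The second comparison asked whether 5-lipoxygenase inhibition changed expression in the injured brain. All 9 members had a lower fitted level in the zileuton mice, by 0.47 to 1.02 on the log2 scale, and none passed at an adjusted p under 0.05. Over the members the adjusted p of edgeR's test lay between 0.713 and 0.885. No gene of the 17363 tested passed, so the background of calls was 0%, while 1186 genes (6.83%) had an unadjusted p under 0.05. Of the members, Ifi204 and Ifi207 did, both lower, against 3.90% of all genes. That number of members was not stable, at 0 to 6 when 1 mouse was left out and 0 to 7 in the other fits. DESeq2 called 28 genes and limma on log2(TPM + 1) called 4, none of them members. In the fit, 49.3% of all genes were lower with zileuton, and members that move together in the same mice and share reads are not 9 separate instances.

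Ifi204 counted 371.37, 927.88 and 486.8 in injured controls 2, 3 and 6, and 409.27, 268.68 and 265.8 in zileuton mice 2, 3 and 6. Its level was 18.9 ± 7.03 against 10.4 ± 2.68 CPM (SD, n = 3 in both groups). The log2 fold change was -0.86 (95% interval -1.50 to -0.22), with an unadjusted p = 0.0143 and an adjusted p = 0.713 in edgeR. Zileuton mouse 2 lay above injured control 2, so the groups overlapped.

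Ifi207 counted 305, 614.83 and 371.51 in the controls and 344.95, 244 and 198 in the zileuton mice (log2 fold change -0.67, SE 0.239, adjusted p = 0.713 by edgeR, unadjusted p = 0.022). Ifi211 counted 129.48, 462.96 and 192.11 against 189.08, 80.73 and 96.98 (log2 fold change -1.02, SE 0.443, adjusted p = 0.713). Ifi209 counted 108.9, 244.4 and 121.83 against 134, 78 and 49 (log2 fold change -0.82, SE 0.371, adjusted p = 0.713). In each of the 3 genes zileuton mouse 2 lay within the controls and the other zileuton mice lay below all controls.

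Mndal counted 42.31, 89.8 and 46.57 in the controls and 35.22, 26.91 and 41.23 in the zileuton mice (log2 fold change -0.74, SE 0.321, adjusted p = 0.713 by edgeR). On CPM it was the 1 member whose groups did not overlap, a pattern that 7.04% of all genes showed in the same direction. On the deposited TPM the groups did overlap, at 1.5 to 4.54 in the controls and 1.49 to 2.82 in the zileuton mice. The separation of Mndal thus held for counts and not for TPM.

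The remaining members had higher unadjusted p-values, from 0.101 to 0.51 by edgeR's test, though not always smaller differences. Ifi203 counted 38, 135 and 73 against 82, 49.34 and 40 (log2 fold change -0.47, SE 0.419), Ifi206 48.32, 147 and 39 against 48, 40 and 40 (-0.78, SE 0.425), and Ifi213 37.68, 115 and 53 against 56, 20 and 34 (-0.83, SE 0.458). For Ifi206 nearly all of the difference lay in injured control 3, since the other 5 mice counted 39 to 48.32. Ifi205 counted 12.84, 25.53 and 8.01 against 14.47, 17.34 and 0 (-0.56, SE 0.816, 95% interval -2.44 to 1.31), and its direction rested on the zileuton mouse at 0.

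**Figure D4:**
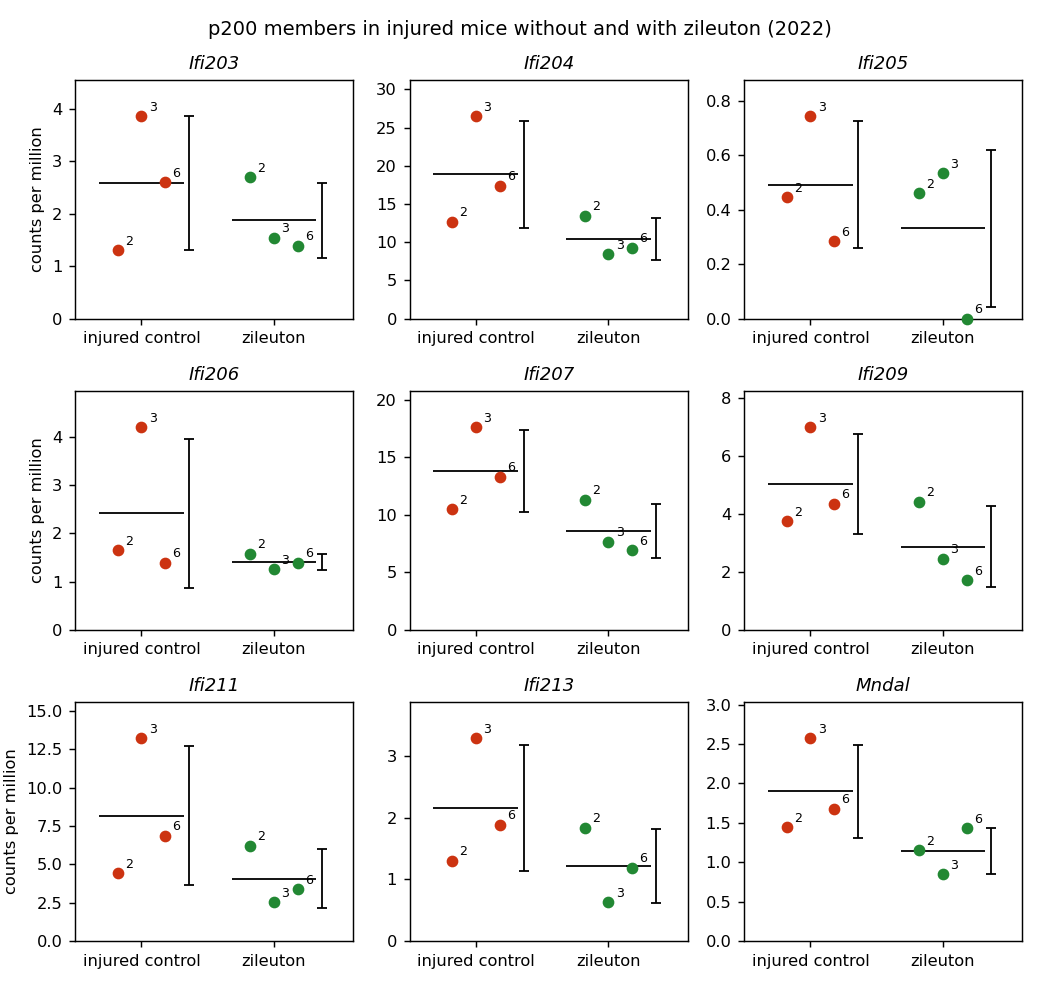
Counts per 1000000 (CPM) of the 9 members in the 3 injured controls (red) and 3 zileuton mice (green) of 2022, numbered by column, each panel with its own axis from 0. The line is the mean and the bar beside it the SD. Injured control 3 is the highest mouse in all 9 panels, and zileuton mouse 2 lies among the other controls in most of them.

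Injured control 3 carried much of this difference. It had the highest CPM of all 9 members among the 6 mice, and its mean log2 CPM over the members was 1.01 above the mean of the mice. Without it the log2 fold change shrank to -0.53 in Ifi204, -0.48 in Ifi211, -0.46 in Ifi207, -0.45 in Mndal, -0.11 in Ifi206 and -0.06 in Ifi203, and no member had an unadjusted p under 0.05, as also without zileuton mouse 3. Without injured control 2 there were 6 such members, and without zileuton mouse 2 there were 5. Without zileuton mouse 2 the log2 fold change became -1.09 in Ifi204 and -1.47 in Ifi211, still short of the adjusted threshold, at 0.338 and 0.381.

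The summed members were 37.5, 79 and 49.7 CPM in injured controls 2, 3 and 6 and 43.2, 25.9 and 26.7 CPM in zileuton mice 2, 3 and 6. The summed monocyte and macrophage markers were 669, 962 and 1520 CPM in injured controls 2, 3 and 6 and 1260, 622 and 616 CPM in the zileuton mice. Both sums were lowest in zileuton mice 3 and 6, and control 2 was the lowest control in both. The highest mouse was control 3 for the members and control 6 for the markers. The microglial sum was 916, 1230 and 1320 against 1270, 1030 and 928 CPM. The part of either in the p200 values was not tested.

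The members rose and fell together over the 6 injured mice of 2022. The Pearson correlation of their log2 CPM was between 0.08 and 0.98 over the 36 pairs of members, with a median of 0.83, and the lowest value was that of Ifi205, which has the fewest counts, with Mndal. Outside the family, the 5 genes whose log2 CPM was most like the mean of the members among 15205 genes were Crtac1 (r = 0.997), Aard (0.994), Ms4a6b (0.992), Ube2l6 (0.991) and Nemp1 (0.989). Ube2l6 encodes the conjugating enzyme for ISG15, and Ms4a6b is a membrane gene of leukocytes. What the 5 genes have in common was not tested. They hold the highest r of 15205 genes over only 6 mice taken from both groups, and how high r would reach by chance was not tested. These correlations are descriptions over 6 mice that share libraries with the members and in which injured control 3 lies far from the rest.

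Aim2, the inflammasome sensor, had a fitted level close to equal in both groups, and its difference from the members was not tested. It counted 80, 169 and 140 in the controls and 125, 120 and 124 in the zileuton mice, with a log2 fold change of -0.04 (95% interval -0.60 to 0.51), and its sign changed in several of the other fits. Ifi208 counted 10, 46 and 21 against 25, 19 and 16 (-0.30, SE 0.481), which became 0.27 without injured control 3. Ifi214 counted 1.13, 7.6 and 1.17 against 0, 2 and 0, Ifi203-ps 4, 5 and 1 against 4, 4 and 2, and Ifi202b 0 throughout.

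None of the 69 genes tested in the pathway lists passed the adjusted threshold. In edgeR, 6.83% of all 17363 genes tested had an unadjusted p under 0.05, with 3.90% lower. Of the 69 list genes, 9 had such a p. Those 9 are named here for that reason, after their values were seen, all with an adjusted p of 0.713 in edgeR. Lower with zileuton were the interferon genes Irf7 (44.8 ± 18.3 against 24.5 ± 6.64 CPM, log2 fold change -0.87, SE 0.293), Isg15 (19.7 ± 8.47 against 11.0 ± 2.91, -0.84, SE 0.305) and Irf9 (35.8 ± 5.83 against 25.3 ± 4.49, -0.50, SE 0.16), the nuclease gene Trex1 (-0.38, SE 0.152), the cytokine gene Il18 (-0.33, SE 0.14) and the binding partners Id1 (-0.65, SE 0.258), Npm1 (-0.38, SE 0.105) and Id2 (-0.17, SE 0.0613). Ptpn11, a phosphatase gene, was higher (0.22, SE 0.0831). Of the 10 neighbouring genes tested, none passed.

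How far the members can be told apart depends on shared sequence. Every stretch of 100 bases in the annotated transcripts was compared between genes. In Ifi211, 56.9% of the stretches also occurred in another p200 gene, 37.2% in Ifi205 and 19.6% in Ifi204. The share was 16.9% in Ifi209, all of it with Ifi214, then 15.0% in Ifi205, 10.7% in Ifi204, 7.74% in Ifi206, 5.89% in Mndal, 3.30% in Ifi213, 2.84% in Ifi203 and 0.263% in Ifi207. Aim2 shared none.

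**Figure D5:**
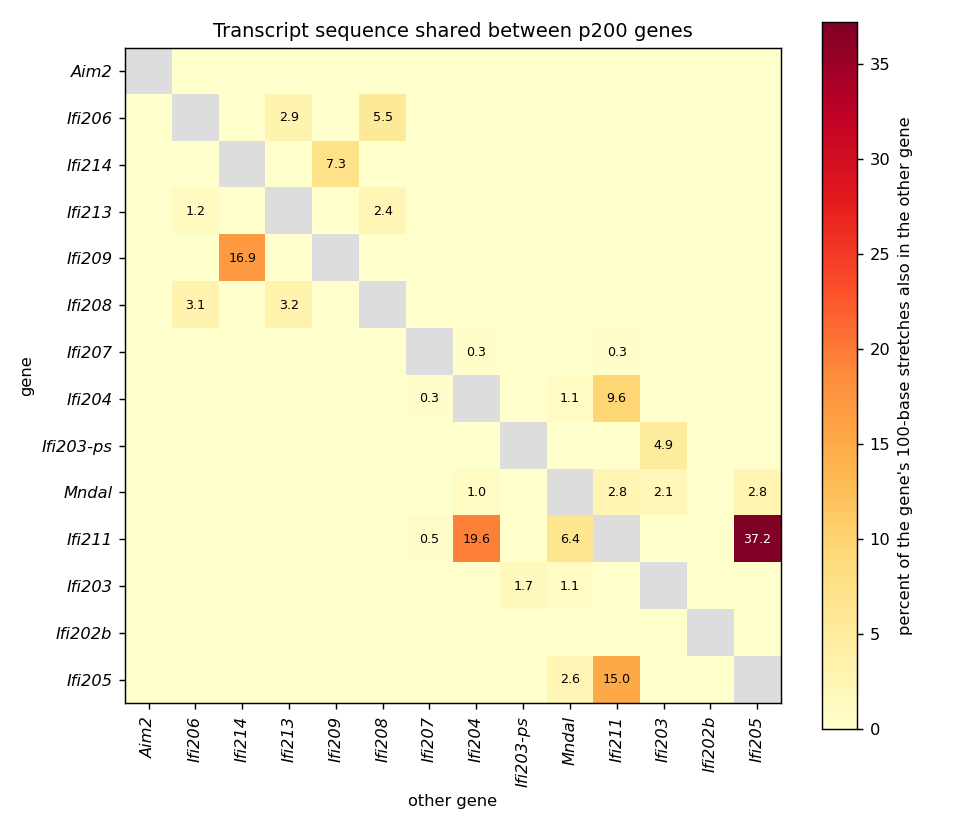
Percent of the 100-base stretches in the transcripts of the gene in each row that also occur in the gene in each column, for the 14 p200 genes in chromosomal order; the diagonal is grey. The highest cell is Ifi211 with Ifi205 at 37.2%. Sharing falls into blocks, with Ifi206, Ifi208 and Ifi213 in one, Ifi209 and Ifi214 in another, and Ifi204, Ifi205, Ifi211, Mndal, Ifi207, Ifi203 and Ifi203-ps in the last, where Ifi203-ps shares 4.92% of its stretches with Ifi203.

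The decimals of the 2022 counts fell into similar blocks, except that Ifi203-ps and Ifi208 were whole in 6 of 6 mice. Ifi203-ps was left out, whereas Ifi208 was kept with Ifi206 and Ifi213, although its own counts held no decimals. Of the 53 member values above 0, 32 (60.4%) were not whole within 0.001, against 34.2% of the values of all tested genes. Ifi204, Ifi211 and Mndal were not whole in 6 of 6 mice and Ifi205 in 5, whereas Ifi203, Ifi206 and Ifi213 were not whole in 1 mouse each. The decimals cancelled within blocks. Ifi209 and Ifi214 counted 244.4 and 7.6 in injured control 3, which sum to 252, and the 6 genes Ifi203, Ifi204, Ifi205, Ifi207, Ifi211 and Mndal summed to 899, 2256 and 1178 in the controls.

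Over the 6 mice, the sum of these 6 genes lay within 0.01 of a whole number, that of Ifi209 and Ifi214 within 0.03, and that of Ifi206, Ifi208 and Ifi213 on whole numbers to 2 decimals. Ifi209 and Ifi214 held decimals only in the 3 injured controls, and Ifi206 and Ifi213 only in injured control 2. In the other mice these 2 blocks were whole before summing, so only the block of 6 genes was informative in every mouse. A block total does not depend on how reads were divided inside the block. The blocks were chosen after the decimals were seen, and their totals are given as a description.

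Block totals showed the same directions as the single genes. The 6 genes together went from 2.49 ± 0.227 to 48.8 ± 16.5 CPM after injury (log2 fold change 4.29, SE 0.249) and from 45.8 ± 17.2 to 26.4 ± 7.71 CPM with zileuton (-0.79, SE 0.283). Ifi209 with Ifi214 had log2 fold changes of 6.12 (SE 0.415) and -0.83 (SE 0.373), and Ifi206 with Ifi208 and Ifi213 5.97 (SE 0.499) and -0.72 (SE 0.382). All 14 p200 genes together went from 5.17 ± 0.299 to 71.0 ± 23.3 CPM after injury, a log2 fold change of 3.78 (SE 0.232), and from 60.6 ± 22.8 to 36.8 ± 9.93 CPM with zileuton, a log2 fold change of -0.72 (SE 0.275).

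Total counts ranged from 42929862 to 48684674 in the 2018 libraries and from 27845562 to 35453257 in 2022. The 2 batches were normalized apart, so levels were not compared between them. The 10 neuronal markers, detected in both batches, all had lower fitted levels after injury and 4 were called lower by edgeR, with their sum at 11600 to 11900 CPM in sham and 7130 to 9810 CPM in TBI mice. Of the 9 markers each for astrocytes, oligodendrocytes and endothelial cells, 7 in each list were called higher. The part of these shifts in the p200 values was not tested.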

How the data were processed

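Bulk RNA-seq tables of 12 mice were used. Per the labels, the submitters' processing notes name HISAT2, featureCounts from Subread, DESeq2 and GRCm39, with no versions. The authors deposited whole counts and FPKM for the 2018 mice, and estimated counts with decimals and TPM for the 2022 mice. How reads were divided between genes is not given in the sources used here.

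Estimated counts were rounded and tested with edgeR 4.0.16 (TMM, filterByExpr, quasi-likelihood test, Benjamini-Hochberg adjustment over all genes, threshold 0.05). DESeq2 1.42.0 and limma 3.58.1 were alternatives, and the scripts were tested on simulated data with known changes. CPM used library totals scaled by the TMM factors. The study's methods give 3 mice per group, and the labels do not tie the 2022 columns to single mice.

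The members and gene lists were chosen with earlier results of these data known. All 9 members and the other p200 genes are named, with up to 4 of the most highly expressed called genes per list and the tested neighbours that passed. 1 gene that this rule would name is not reported here.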

Additional observations from a re-analysis of the deposited data

How the results depend on the processing

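All 9 members kept their direction in TBI mice in every fit that tested them, including each fit without 1 mouse, where 9 to 9 were called. Only 2 of the 9 were called when 10 counts were required in every library and 5 with limma on log2(FPKM + 1) or log2(FPKM + 0.1), because these filters left fewer members to test. The size of the change depended on the scale. With limma on log2(FPKM + 1) without a filter it was 2.55 in Ifi204, 0.91 in Ifi206, 0.61 in Ifi203, 0.57 in Ifi213 and 0.30 in Ifi205, since a pseudocount of 1 exceeds the sham levels. The log2 fold change of the summed family was 3.51 to 3.99 after injury and -0.97 to -0.39 with zileuton when 1 mouse was left out. Genes called after injury numbered 3848 to 4956 without 1 mouse, and the share called higher moved from 60% to 68.2% with library totals and 71.5% with limma without a filter, and down to 55.1% with DESeq2, 55.9% with its size factors and 56.6% with 10 counts in every library. In the zileuton comparison the count of genes called was 0 in edgeR, 28 in DESeq2, 4 without the filter on low counts, and 4 and 3 with limma on log2(TPM + 1) and log2(TPM + 0.1). Without 1 mouse, Ifi205 ranged from -1.08 to 0.00 (without zileuton mouse 6), Ifi208 from -0.65 to 0.27 (without injured control 3) and Aim2 from -0.27 to 0.10, while Ubtf came to -0.03 and -0.01 without injured control 3 or zileuton mouse 6. Aim2 turned to 0.07, 0.09 and 0.07 with limma (pseudocounts 1 and 0.1, and 1 without a filter), to 0.05 with the length trend removed, and to 0.07, 0.10 and 0.01 without injured control 3, injured control 6 or zileuton mouse 3. The cause was not tested. The median share of stretches in another p200 gene was 7.74% at 100 bases, 17.7% at 50 and 2.14% at 150, by construction falling with length.

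Replicate numbers recur in both groups of each batch but did not pair the mice, the same-numbered deviations correlating at -0.023, -0.094 and -0.033 in 2018 and at -0.28, 0.063 and -0.282 in 2022. With the replicate block 4337 genes and 9 members were called after injury, and 0 of both with zileuton. Low sham counts limit the folds of Ifi205, Ifi206 and Ifi213.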
